A study of Mus musculus with 8 samples.

Results

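Type 2 conventional dendritic cells (cDC2) of the colonic lamina propria were picked out of single-cell RNA-sequencing data of sorted CD11b+ cells that carried CCR2 or CD64, the gate for monocytes and macrophages. They were 155 of the 3213 cells kept after quality filtering, out of 5947 cell barcodes. A cell was counted as cDC2 with at least 3 unique molecular identifiers (UMIs, the counted transcript molecules) of Cd209a, Flt3 and Btla together, none of Xcr1, Clec9a, Cd3d, Cd3e or Cd3g, fewer than 60 UMIs of C1qa, C1qb and C1qc per 10000, and fewer than 20 UMIs of Hp, Chil3 and F13a1 per 10000. The levels of these genes therefore chose the cells and are not findings.

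All 8 mice were young adult female littermates with a floxed CD98hc gene and a tamoxifen-inducible Cre recombinase driven from the Cx3cr1 locus together with a yellow fluorescent reporter (EYFP). The 4 control mice (replicates 1 to 4) received corn oil, and the 4 cKO mice (replicates 5 to 8) received tamoxifen on 5 consecutive days, 100 µl of 20 mg/ml according to the sample labels, with cells taken on day 7. Only cKO mice received tamoxifen, so effects of the drug and of the deletion cannot be told apart. The recombinase is made only in cells that use the Cx3cr1 promoter. Transcripts of day 7 do not show whether the precursors of a cell used it. Each mouse was captured in a well of its own.

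Type 2 dendritic cells take up antigen in tissues and carry it to lymph nodes, where they present it on MHC class II to CD4+ T cells. They arise from Flt3-dependent precursors, depend in part on the transcription factor IRF4, and share CD11b and often CCR2 with monocytes, so a gate made for monocytes and macrophages can hold them. They also sense type I interferon, which switches on a broad set of antiviral genes.

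The cDC2 numbered 48, 26, 6 and 51 in control replicates 1 to 4 and 2, 6, 8 and 8 in cKO replicates 5 to 8. Control replicate 3 and cKO replicate 5 were small libraries, with 85 and 83 cells kept, against 349 to 724 cells in the other mice. Total depth over cDC2 was 68256 to 453584 UMIs in control mice and 22070 to 62416 UMIs in cKO mice. A run of letters used as a barcode occurred in more than 1 library for 25 barcodes, and 1 cDC2 carried such a barcode. Scrublet called 4 control cDC2 and 0 cKO cDC2 doublets, which were left in.

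Genes outside the gate were first used to check the label. Over the control cells, Klrd1 (an NK-type lectin receptor) had 577 CPM (UMIs of a gene scaled to 1000000 UMIs) in cDC2, against 78.1 CPM in 175 Xcr1 Clec9a cells (type 1 dendritic cells by their gate), 2.25 CPM in 113 Hp Chil3 F13a1 cells (monocyte genes) and 7.35 CPM in 670 C1q high cells (macrophage genes). H2-Oa, a modulator of MHC class II peptide loading, had 205 CPM in cDC2 and 179 CPM in Xcr1 Clec9a cells, against 0 and 11.5 CPM in Hp Chil3 F13a1 and C1q high cells. The lectins Clec10a and Mgl2, typical of type 2 cells, reached 568 and 1016 CPM in cDC2 and 3.72 and 8.83 CPM in Xcr1 Clec9a cells, while Mgl2 was also at 330 CPM in C1q high cells. Cd7 had 186 CPM in cDC2 and at most 1.39 CPM in the other groups, none of which holds cells with a Cd3 UMI. Just outside the gate, the 21 cells of all mice with 2 UMIs of Cd209a, Flt3 and Btla had 132 CPM. Irf4 had 25.4 CPM in cDC2 and 2.32 CPM in Xcr1 Clec9a cells, whereas Irf8, the factor of type 1 cells, had 231 and 2317 CPM. These levels are descriptions without a test, since the gate picked the cells on genes that go with them. Of the 21 type 2 markers outside the gate, 12 were highest in cDC2 among the 4 groups, and the others were not. Sirpa had 108 CPM in cDC2 and 248 CPM in C1q high cells, and Itgam 101 and 218 CPM. Zbtb46 had 21.9 CPM in cDC2 and 27.4 CPM in Xcr1 Clec9a cells. Cbfa2t3, Gpr171, Dpp4, Notch2, Kit and Cd33 were also higher in at least 1 other group.

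**Figure D1:**
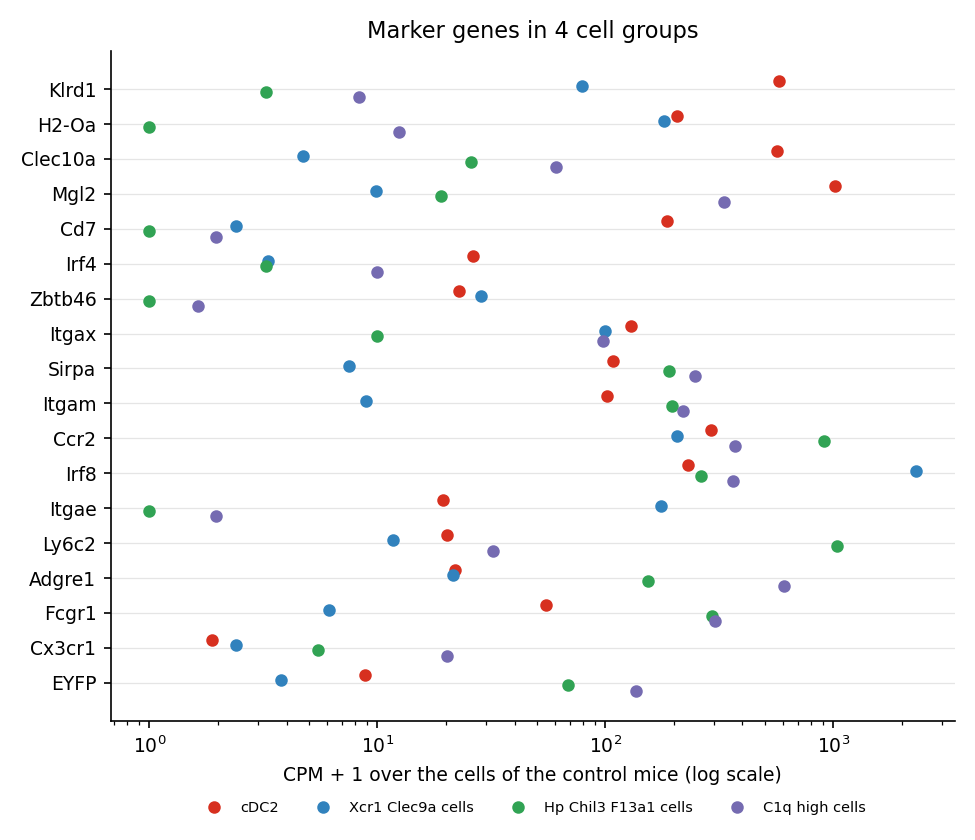
Level of 18 marker genes (CPM + 1, log axis) over the control cells of 4 cell groups, 1 point per group. Klrd1, Clec10a, Mgl2, Cd7 and Irf4 are highest in cDC2, Irf8 and Itgae in Xcr1 Clec9a cells, Ly6c2 and Ccr2 in Hp Chil3 F13a1 cells, and Adgre1, Cx3cr1 and EYFP in C1q high cells.

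Defining markers of other lineages were mostly low, and other members of their lists were not. Cd79a and Ms4a1 of B cells and S100a8, S100a9 and Ly6g of neutrophils had no UMI in any of the 155 cells, and Siglech of plasmacytoid dendritic cells had 1.75 CPM in control cells. The macrophage gene Adgre1 had 21.0 CPM in control cDC2 against 610 CPM in C1q high cells, and Mertk had a UMI in 1 cell. In contrast, control cDC2 held 198 CPM of the immunoglobulin joining chain gene Jchain, with a UMI in 88 of 131 cells, and 127 to 419 CPM was found in the other 3 groups. They also held 177 CPM of Bst2, 1583 CPM of Plac8 and 341 CPM of Cd68, genes of the plasmacytoid, monocyte and macrophage lists. Bst2, which interferon also induces, was at 117 to 194 CPM in control mice and 256 to 436 CPM in cKO replicates 6 to 8. The sort markers were present, with Itgam (CD11b) at 101 CPM, Ccr2 at 289 CPM and Fcgr1 (CD64) at 54.2 CPM. Summed over the 8 monocyte markers outside the gate, the level was 1157 to 2390 CPM in control mice and 1923 to 3928 CPM in cKO mice, over the 13 macrophage markers it was 366 to 890 CPM and 570 to 1458 CPM, and over the 9 plasmacytoid markers it was 161 to 260 CPM and 288 to 513 CPM, without overlap. Ly6c2 alone was at 0 to 33.1 CPM in control mice and at 80.1 to 257 CPM in cKO replicates 6, 7 and 8, against 1043 CPM in control Hp Chil3 F13a1 cells. The part of these markers in the results on cDC2 was not tested.

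Of the transcripts of the locus that drives the recombinase, Cx3cr1 was sparse in all groups. EYFP was found less often in cDC2 than in Hp Chil3 F13a1 and C1q high cells. Counts this low do not show in how many cDC2 the locus was active. A Cx3cr1 UMI was found in 1 of 131 control cDC2 (0.763%) and in 0 of 24 cKO cDC2, a count that allows a share of up to 12.5%, against 7.61% of control C1q high cells. An EYFP UMI was found in 7 of 131 control cDC2 (5.34%), against 1.71% of Xcr1 Clec9a cells, 18.6% of Hp Chil3 F13a1 cells and 33.9% of C1q high cells. Thinned to 2000 UMIs per cell, these shares were 1.43%, 0.406%, 13.1% and 21.3%, and the median depths were 8371, 11735, 4196 and 4420.5 UMIs. Slc3a2, which encodes CD98hc (chromosome 19, 8706882 to 8723369 on GRCm38), was at 308, 265, 58.6 and 428 CPM in cDC2 of control replicates 1 to 4 and at 128, 178 and 144 CPM in cKO replicates 6 to 8. The fitted log2 fold change of -0.93 (SE 0.45) did not pass the test (adjusted p = 0.652, edgeR), the groups overlapped, and counting at the 3′ end is blind to an excised exon.

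Most cells entered through Cd209a. Of the 155 cDC2, 143 had a Cd209a UMI, 71 a Flt3 UMI and 30 a Btla UMI, and 138 reached the limit by Cd209a alone, with a median of 10 Cd209a UMIs per cell and at most 83. The edge of the gate was soft. The 16 cells with exactly 3 UMIs of the 3 genes had 248 CPM of Klrd1 and 286 CPM of Clec10a, and the 21 cells with 2 UMIs, just outside, had 455 and 73.4 CPM. Ly6c2 was at 143 CPM inside and 330 CPM outside this edge, and at 25.7 CPM in the 126 cells with 5 or more UMIs.

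The cDC2 were not uniform. Control cDC2 with a Ccr2 UMI (91 cells, median 8461 UMIs) and without one (40 cells, median 7828.5 UMIs) differed in several genes, a split chosen after the values were seen and given without a test. With a Ccr2 UMI, the lysozyme gene Lyz1 was at 299 against 30.9 CPM, the chemokine Ccl9 at 394 against 130 CPM, Clec4b1 at 207 against 61.8 CPM and the mannose receptor Mrc1 at 57.3 against 9.27 CPM. Each of these was higher in the cells with Ccr2 in all 3 control mice with at least 20 cDC2 (replicates 1, 2 and 4). Without a Ccr2 UMI, the decoy receptor Il1r2 was at 797 against 315 CPM, Ifitm1 at 4132 against 1176 CPM and the costimulatory gene Cd86 at 247 against 121 CPM, again in the same direction in all 3 mice. For Il1r2 the difference was small in control replicate 2 (338 against 307 CPM). Control replicate 4 had the highest levels of Il1r2 (670 CPM) and Ifitm1 (3197 CPM) among the control mice, which weighs on the pooled values. Klrd1 (557 against 627 CPM) and H2-Oa (193 against 235 CPM) differed less between the sides of the split.

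Control replicate 4 contributed most of a further pattern. Plet1, a surface protein of some migratory dendritic cells, had a UMI in 17 of its 51 cDC2 but in 2, 2 and 1 cells of control replicates 1, 2 and 3. Its level was 395 CPM in replicate 4 and 7.89 to 16.6 CPM in the other control mice. Itgae, which encodes CD103 and divides intestinal type 2 cells into subsets, had a UMI in 9 cDC2 of control replicate 4, in 2 of replicate 1 and in none of replicates 2 and 3.

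At 2000 UMIs per cell the expected share of cDC2 with an Itgae UMI was 1.33, 0, 0 and 5.30% in control replicates 1 to 4 and 0, 0 and 6.91% in cKO replicates 6 to 8. The means were 1.66% ± 2.51 (SD, n = 4) and 2.30% ± 3.99 (SD, n = 3), and the mice overlapped (p = 0.714 in an exact two-sided permutation test of 35 arrangements). The same thinned share was 30.1% in control Xcr1 Clec9a cells and 0 in Hp Chil3 F13a1 cells. Most Itgae signal among these mice came from 1 mouse per group.

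To ask whether cDC2 were as frequent in cKO mice, their share of the cells kept was compared between mice. It was 6.63, 5.15, 7.06 and 9.29% in control replicates 1 to 4, and 2.41, 1.72, 1.65 and 1.84% in cKO replicates 5 to 8. Every cKO mouse lay below every control mouse. The means were 7.03% ± 1.71 (SD, n = 4) and 1.91% ± 0.345 (SD, n = 4), so cKO mice were 3.69-fold, or 5.13 percentage points, below control mice (difference -5.13; p = 0.0286 in an exact two-sided permutation test of 70 arrangements, the smallest p this design allows; adjusted p = 0.0327 over 8 shares). The interval of a single mouse was wide where cells were few, as in control replicate 3 (3.28 to 14.6%, 95% Wilson interval) and cKO replicate 5 (0.663 to 8.37%), and covers counting error only.

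A share depends on the other cells of the sort. The Hp Chil3 F13a1 cells made up 4.98% ± 3.40 of the cells kept in control mice and 19.0% ± 7.59 in cKO mice (SD, n = 4 each). Counted against the cells outside that group, cDC2 were still 7.44% ± 2.03 in control and 2.35% ± 0.273 in cKO mice. Against C1q high cells, which were lower as well, the cDC2 share of both groups together was 16.6% ± 5.10 and 6.89% ± 0.590. Both differences had p = 0.0286 (two-sided exact permutation test, adjusted p = 0.0327).

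The Xcr1 Clec9a cells were lower in much the same proportion, at 9.92% ± 4.44 of the cells kept in control and 2.83% ± 1.34 in cKO mice, 3.50-fold lower (SD, n = 4 each; p = 0.0286, exact permutation). Among both kinds of dendritic cells together, cDC2 were 43.3% ± 15.6 in control and 43.7% ± 15.6 in cKO mice (p = 1, exact permutation), and the single mice ranged from 24.5 to 66.7%. No shift between the 2 kinds of dendritic cells was detectable over this spread.

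**Figure D2:**
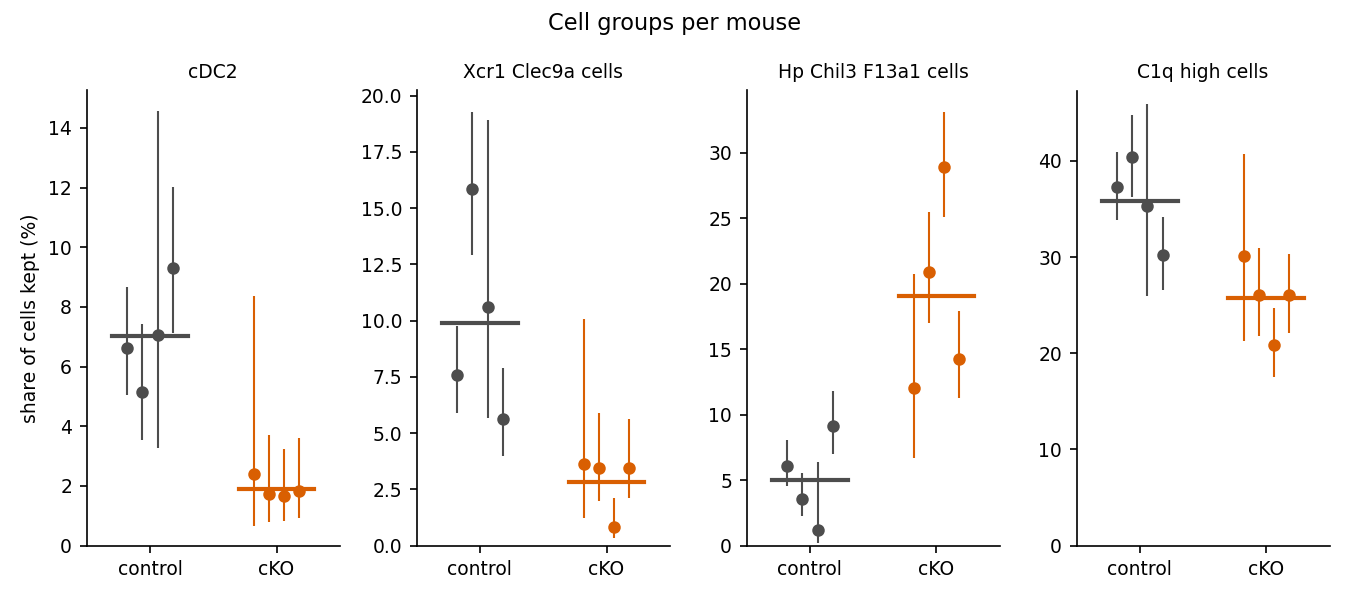
Share of cells kept (%) that fell into each of 4 cell groups, 1 point per mouse with its 95% Wilson interval, and a line at the group mean. The 4 cKO mice sit between 1.65 and 2.41% cDC2, below the 4 control mice at 5.15 to 9.29%, and the Hp Chil3 F13a1 cells are higher in every cKO mouse than in any control mouse.

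The median cDC2 held 7827, 8678.5, 11242.5 and 8473 UMIs in control replicates 1 to 4 and 6477, 7189 and 7274 UMIs in cKO replicates 6 to 8. The difference of -2075 UMIs did not pass the test (p = 0.0571 in an exact two-sided permutation test of 35 arrangements), although the groups did not overlap. Because the gate used raw UMIs, the share was also taken over cells of at least 3000 UMIs, where the difference was -6.73 percentage points.

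Gene expression was then compared on counts summed over the cDC2 of each mouse, with 4 control and 3 cKO mice, since cKO replicate 5 had only 2 cDC2 and was left out. The sums of the cKO mice rest on 6, 8 and 8 cells, fewer than the 20 the study asks for. Of 5026 genes tested, 16 passed a false discovery rate of 0.05 (0.318% of genes; edgeR quasi-likelihood test with Benjamini-Hochberg adjustment), 10 of them higher (0.199%) and 6 lower (0.119%) in cKO mice. All 10 that rose belong to the interferon response list, and of the 6 that fell, 3 (Stmn1, Hmgb2 and Tuba1b) are on the cell cycle list. The gene lists were chosen with earlier results of these data known. List counts here and below are therefore descriptions and not independent support. The median log2 fold change of all genes was -0.15. For 15 of the 16 genes the fitted mice of the groups did not overlap, Isg15 being the exception, and statements on every cKO mouse in the gene comparison refer to the 3 fitted mice. No gene passed without control replicate 2, cKO replicate 7 or cKO replicate 8 (270, 366 and 398 genes had an unadjusted p under 0.05), 1 passed without control replicate 1, 8 without control replicate 3 and 26 without cKO replicate 6. None passed with a gate of at least 4 UMIs (418 with an unadjusted p under 0.05), and DESeq2 gave 30 genes.

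**Figure D3:**
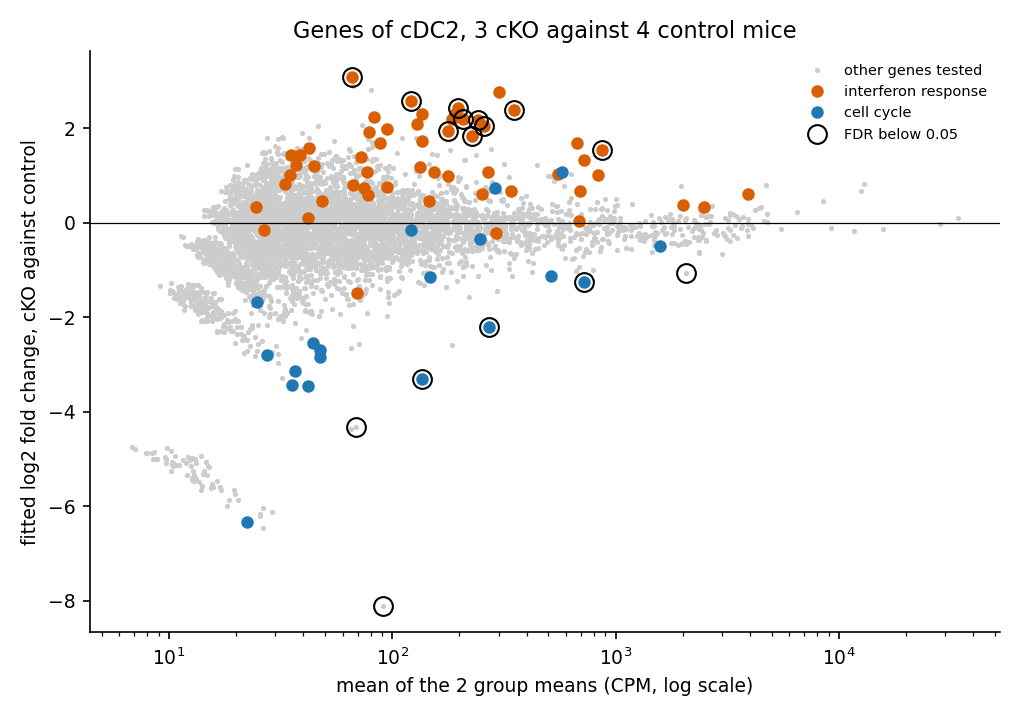
Fitted log2 fold change, cKO against control, of each of 5026 genes in cDC2, over the mean level in CPM (log axis). Interferon genes (orange) lie mostly above 0 and cell cycle genes (blue) mostly below, circles mark the 16 genes past the threshold, and the band at the lower left holds genes without a UMI in the 3 cKO mice.

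Type I interferon acts through its receptor on transcription factors that include STAT2 and IRF9, which induce IRF7 and many effector genes. Of the 94 genes of the interferon list, 87 were in the table and 55 passed the filter on low values. Of these 55, 10 rose, 0 fell and 45 did not pass, with a median log2 fold change of 1.19 against -0.15 over all genes. In 23 of the 55, every cKO mouse lay above every control mouse, which was so for 3.56% of all genes tested, and 52 of the 55 estimates were above 0. An unadjusted p under 0.05 with a positive estimate was found for 32 of the 55, against 2.63% of all genes. The list median stayed between 0.96 and 1.47 in all alternatives, single mice left out included, while the count of genes past the threshold fell to 0 without control replicate 2, cKO replicate 7 or cKO replicate 8, and with the gate of at least 4 UMIs.

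Among the regulators, Irf7 (ENSMUSG00000025498, chromosome 7, 141262706 to 141266481) was at 39.4, 66.3, 58.6 and 168 CPM in control replicates 1 to 4 and at 231, 553 and 417 CPM in cKO replicates 6 to 8. All 3 cKO mice were above the highest control mouse. Its log2 fold change was 2.17 (SE 0.44, adjusted p = 0.0448, edgeR), and 2.94 without control replicate 4. These genes of the receptor and its signal transducers did not pass, with log2 estimates of 0.55 for Ifnar1, -0.44 for Ifnar2, 1.57 for Stat2 and 0.58 for Irf9. Irf1, which interferon gamma also induces, had an estimate of -1.49 (adjusted p = 0.616, edgeR).

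Among the effectors, Ifi27l2a (chromosome 12, 103442167 to 103443680), a small interferon-induced membrane protein, had the highest level of the genes that rose. It was at 594, 398, 410 and 335 CPM in control replicates 1 to 4 and at 1463, 1087 and 1362 CPM in cKO replicates 6 to 8, so that the groups were well apart. The log2 fold change was 1.53 (SE 0.24, adjusted p = 0.0214, edgeR), and cKO replicate 5, outside the fit, had 770 CPM in its 2 cells.

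Oas1a and Oas1g, neighbouring genes for 2′-5′ oligoadenylate synthetases that activate RNase L on double-stranded RNA, had log2 fold changes of 1.83 (SE 0.37) and 2.19 (SE 0.37), the first falling to 1.20 without cKO replicate 7 (adjusted p = 0.513, edgeR). Oas1g was at 60.5, 87.0, 103 and 61.7 CPM in control mice and 257, 535 and 224 CPM in cKO replicates 6 to 8. They are closely related copies on chromosome 5, so the split of reads between them is uncertain. Isg15, a ubiquitin-like modifier, was at 68.4, 141, 58.6 and 170 CPM in control mice and at 154, 588 and 1041 CPM in cKO replicates 6 to 8. Its cKO values thus overlapped with control replicate 4 at the low end, at a log2 fold change of 2.39 (SE 0.46, adjusted p = 0.0426, edgeR), which was 1.66 without cKO replicate 8 (adjusted p = 0.357). An Isg15 UMI was found in 40 of 131 control cDC2 and 15 of 24 cKO cDC2, or 12.1 and 35.3% at 2000 UMIs. Of its partners, Ube2l6 (conjugation) had an estimate of 1.98 and Usp18 (removal) of 2.30, with adjusted p of 0.0734 and 0.119 (edgeR).

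The IFI200 family of DNA sensors contributed Ifi204 and Ifi209 on chromosome 1. Ifi204 was at 57.8 to 73.3 CPM in the 4 control mice and at 128, 410 and 449 CPM in cKO replicates 6 to 8, without overlap, and Ifi209 at 29.3 to 94.8 CPM and 232 to 334 CPM. Their log2 fold changes were 2.43 (SE 0.38) and 1.94 (SE 0.34). Relatives that did not pass had estimates of 0.99 (Ifi203), 1.32 (Ifi205), 1.73 (Ifi207) and 1.69 (Ifi211). Of the Phf11 cluster on chromosome 14, Phf11b rose (log2 fold change 2.03, SE 0.36, adjusted p = 0.0223, edgeR), and Phf11a, Phf11c and Phf11d had estimates of 2.19, 2.29 and 2.08 without passing. These families also hold closely related copies, so values of single members are uncertain.

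Gbp2 (chromosome 3, 142620602 to 142638008), a GTPase that attacks vacuoles of intracellular pathogens, was at 15.8, 16.6, 0 and 15.4 CPM in control mice and at 25.7, 125 and 208 CPM in cKO replicates 6 to 8. The groups were apart, but the lowest cKO value rests on 1 UMI. The log2 fold change was 3.08 (SE 0.61, adjusted p = 0.0431, edgeR). Rtp4 (chromosome 16), a receptor transport protein, was at 14.7 to 45.6 CPM and 71.3 to 433 CPM (log2 fold change 2.58, SE 0.53). Much of this came from cKO replicate 8, without which it was 1.31 (adjusted p = 0.603, edgeR). Gbp3, Gbp7 and the GTPases Irgm1 and Igtp did not pass, with estimates of 0.996, 0.807, 0.796 and -0.15. The restriction factors Ifitm1, Ifitm2 and Ifitm3 were high in both groups, Ifitm3 at 3042 CPM ± 347 (SD, n = 4) and 4796 CPM ± 1121 (SD, n = 3), and none passed.

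Promoters of genes that rose were read from RefSeq (GRCm38.p6, 250 bases before to 50 after the start, 5′ to 3′ on the gene's strand) and searched on both strands for GAAA, any 2 bases and GAAA again, the core of the interferon-stimulated response element. The sequences of 3 promoters with a match and of Irf7, which has none in this window, are shown with every match in capitals, and on the opposite strand the motif reads TTTC, any 2 bases and TTTC. In Oas1a 2 matches overlap.
Gbp2, chr3:142620413-142620712, plus strand: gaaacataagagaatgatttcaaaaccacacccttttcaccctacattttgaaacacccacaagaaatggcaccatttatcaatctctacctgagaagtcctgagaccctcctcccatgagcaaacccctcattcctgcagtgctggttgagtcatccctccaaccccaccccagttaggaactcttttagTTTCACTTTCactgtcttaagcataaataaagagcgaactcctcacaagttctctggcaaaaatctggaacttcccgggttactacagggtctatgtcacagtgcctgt
Oas1a, chr5:120907476-120907775, minus strand: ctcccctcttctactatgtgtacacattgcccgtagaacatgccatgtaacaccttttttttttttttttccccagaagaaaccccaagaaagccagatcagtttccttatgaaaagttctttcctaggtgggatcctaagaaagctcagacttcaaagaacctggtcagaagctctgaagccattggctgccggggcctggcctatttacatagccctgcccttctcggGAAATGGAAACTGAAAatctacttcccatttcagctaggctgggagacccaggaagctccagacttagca
Phf11b, chr14:59341281-59341580, minus strand: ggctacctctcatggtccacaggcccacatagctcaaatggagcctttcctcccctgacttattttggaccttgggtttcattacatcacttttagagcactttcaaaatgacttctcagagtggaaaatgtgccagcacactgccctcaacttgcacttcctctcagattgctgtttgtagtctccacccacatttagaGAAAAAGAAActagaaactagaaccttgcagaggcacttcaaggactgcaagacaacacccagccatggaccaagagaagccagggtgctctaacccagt
Irf7, chr7:141266375-141266674, minus strand: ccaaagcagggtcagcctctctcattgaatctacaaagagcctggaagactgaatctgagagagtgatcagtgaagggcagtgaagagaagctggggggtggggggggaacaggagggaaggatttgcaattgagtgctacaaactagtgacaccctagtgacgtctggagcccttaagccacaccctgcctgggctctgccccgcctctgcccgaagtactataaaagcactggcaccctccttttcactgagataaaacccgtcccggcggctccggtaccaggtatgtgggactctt

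Of the 10 genes that rose, 6 had a promoter in the table, and 4 of these held the motif (Gbp2, Oas1a, Oas1g and Phf11b). It was held by 18 of 37 matched genes of the interferon list that were tested but did not pass, by 0 of 5 matched genes that fell, by 4.87% of 3965 matched genes tested and by 3.44% of all 32851 promoters. A match is a description of these letters and not evidence of binding.

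**Figure D4:**
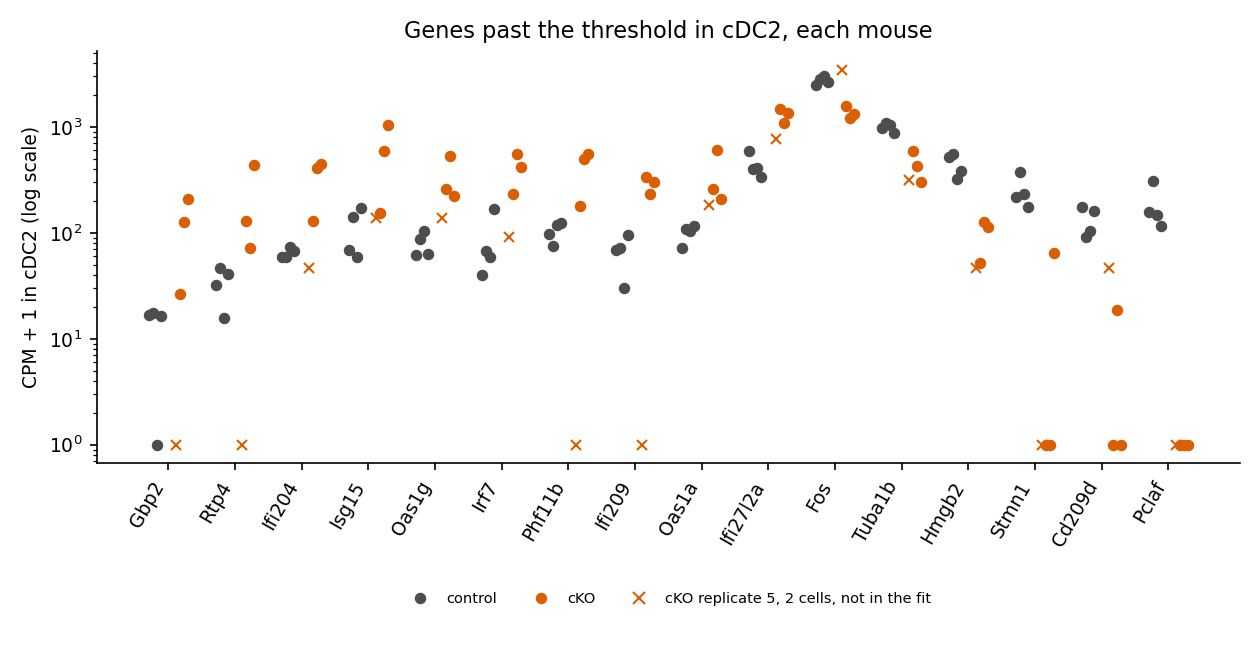
Level (CPM + 1, log axis) of the 16 genes past the threshold in cDC2 of each mouse, ordered by log2 fold change, with crosses for the 2 cells of cKO replicate 5 that were not in the fit. Isg15 overlaps between the fitted groups, and Pclaf has no UMI in any cKO mouse.

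The genes that fell were led by genes of dividing cells. Pclaf (chromosome 9, 65890237 to 65903266), which binds the replication clamp PCNA, was at 158, 311, 147 and 115 CPM in control replicates 1 to 4 and had no UMI in any cKO mouse. Over the fitted mice, 197 UMIs stood against none (adjusted p = 0.0223, edgeR). With a floor of 3 UMIs over the cKO group, the pooled level was at least 9.04-fold lower in cKO mice. This bound covers the counting of UMIs only and leaves out the spread between cells and mice. Its UMIs came from 7, 5, 1 and 8 cells of control replicates 1 to 4, 21 of 131 cells in all (16.0%), and from 0 of 24 cKO cells, which allows a share of up to 12.5%. Pclaf is on no list.

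Hmgb2, a chromatin protein abundant in cycling cells, was at 521, 559, 322 and 381 CPM in control replicates 1 to 4 and at 51.3, 125 and 112 CPM in cKO replicates 6 to 8, a log2 fold change of -2.20 (SE 0.37, adjusted p = 0.0214, edgeR). Stmn1, which destabilises microtubules, was at 176 to 373 CPM in control mice and at 0, 0 and 64.1 CPM in cKO replicates 6 to 8, a log2 fold change of -3.31 that was -2.68 without cKO replicate 7 and, with no UMI left in cKO mice, -8.71 without cKO replicate 8. Tuba1b, an alpha tubulin, was at 882 to 1093 CPM and 304 to 591 CPM. The values of the groups did not overlap for these 3 genes, and cKO replicate 5 lay below the control mice as well (45.3, 0 and 317 CPM).

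Of the 31 cell cycle genes, 19 passed the filter, 3 fell, 0 rose and 16 did not pass. Their median log2 fold change was -2.20, or -1.69 with Rrm1, which had no UMI in the fitted cKO mice, at its bound. In 9 of the 19 every cKO mouse lay below every control mouse, against 7.02% of all genes tested, and 14 had a negative estimate with an unadjusted p under 0.05, against 5.23%. The replication licensing genes Mcm3, Mcm5, Mcm6 and Mcm7 had estimates between -2.55 and -3.45 and non-overlapping mice without passing (adjusted p 0.251 to 0.39, edgeR). Estimates above 0 were found for Ccnd2 (0.73) and Cdkn1a (1.07), a cell cycle inhibitor, and neither passed. Of the 5026 genes, 69 had no UMI in the fitted cKO mice and 0 had none in the control mice, at 157462 and 1143708 UMIs in all, and the part of this depth difference was not tested.

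The level of the whole lists set the cDC2 beside the other cells of the same mice. Summed over 87 interferon genes, cDC2 were at 12747, 12995, 11852 and 17939 CPM in control mice and at 20925, 32693 and 28102 CPM in cKO replicates 6 to 8. The Hp Chil3 F13a1 cells were higher in both groups, at 21702 to 25892 CPM and 39959 to 48558 CPM, the C1q high cells were at 8436 to 12732 CPM and 19062 to 27561 CPM, and the Xcr1 Clec9a cells were at 7074 to 11772 CPM in control mice and at 18772 and 15035 CPM in cKO replicates 6 and 8. In all 4 groups every cKO mouse with a sum lay above every control mouse. Summed over 31 cell cycle genes, cDC2 were at 5377 to 7653 CPM in control and 3445 to 4189 CPM in cKO mice, again apart. Xcr1 Clec9a cells were at 4657 to 9803 CPM in control mice and at 10986 and 5070 CPM in cKO replicates 6 and 8, without a common direction. Hp Chil3 F13a1 cells (2303 to 3046 CPM and 2618 to 2802 CPM) and C1q high cells (2300 to 3188 CPM and 2634 to 3656 CPM) overlapped between the groups. These sums are descriptions, given without a test.

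**Figure D5:**
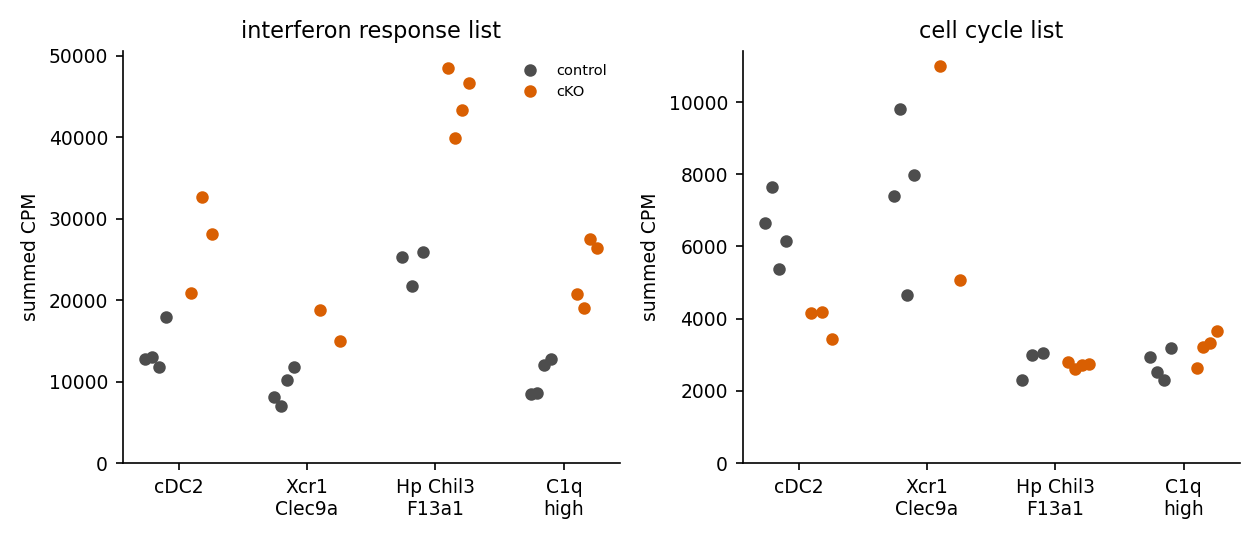
Summed level (CPM) of the interferon response list (87 genes) and the cell cycle list (31 genes) in 4 cell groups, 1 point per mouse with at least 5 cells of the group. In cDC2 the interferon sum of each cKO mouse is above, and the cell cycle sum below, that of each control mouse.

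Whether the effect in cDC2 differed from that in other cells was tested as an interaction with the mouse as a block. Against Xcr1 Clec9a cells (4 control and 2 cKO mice), 13 of 7901 genes passed (0.165%), and against Hp Chil3 F13a1 cells (3 mice each), 51 of 7289 (0.7%). Of these, 4 and 5 had an interaction above 0, and 9 and 46 had one below 0. The median interaction over all genes tested was itself below 0, at -0.32 and -0.42, and its part in the values of single genes was not tested. The cKO effect on Hmgb2 was more negative in cDC2 in both comparisons, by 2.39 (SE 0.43) and 2.01 (SE 0.42) on the log2 scale (adjusted p = 0.00148 and 0.000982, edgeR). The same held for Tuba1b, by 1.31 and 1.84. In Xcr1 Clec9a cells themselves the estimates were 0.15 for Hmgb2 and 0.03 for Tuba1b, and in Hp Chil3 F13a1 cells -0.38 and 0.35. Ifi27l2a rose in all 3 cell groups, with log2 fold changes of 1.53 in cDC2, 1.91 in Xcr1 Clec9a cells and 1.67 in Hp Chil3 F13a1 cells (56 of 5821 genes, 0.962%, passed in the last, and 1 of 6620, 0.0151%, in Xcr1 Clec9a cells), and neither interaction passed. The cKO effect on Gbp2 and Ifi204 was larger in cDC2 than in Hp Chil3 F13a1 cells, by 2.93 (SE 0.62) and 1.62 (SE 0.37) on the log2 scale (adjusted p = 0.00105 and 0.00339, edgeR). In Hp Chil3 F13a1 cells themselves the estimates were -0.31 and 0.58. There the control means were already 103 and 426 CPM, against 15.9 and 60.7 CPM in cDC2. Without the mouse as a block, and with DESeq2, 0 genes passed in either comparison, so these differences rest on the blocked fit (without the block 397 and 561 genes had an unadjusted p under 0.05, and with DESeq2 191 and 128).

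No gene of antigen presentation passed. On the MHC class II list, 0 of 18 genes tested passed, with a median log2 fold change of -0.13, and the invariant chain Cd74 was the most abundant at 32468 CPM ± 2217 (SD, n = 4) and 36096 CPM ± 3053 (SD, n = 3). On the MHC class I list, 0 of 22 passed with a median of 0.08. Its largest level was that of B2m, the light chain, at 3390 CPM ± 555 in control and 6056 CPM ± 1242 in cKO mice, with an estimate of 0.80 (adjusted p = 0.102, edgeR), and the nonclassical gene H2-Q7 had an estimate of 1.43 (adjusted p = 0.084, edgeR). Both lay higher in each of the 3 fitted cKO mice than in any control mouse, while B2m in the 2 cells of cKO replicate 5 (3761 CPM) was below control replicate 4 (3878 CPM).

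Of the genes for maturation and migration, 0 of 15 passed, although 14 estimates were above 0 and the median was 0.75. Cd40, Cd80 and Cd86, which costimulate T cells, had estimates of 1.35, 1.16 and 0.62, and the groups overlapped in each. Dendritic cell transcription and growth factor genes (21 tested), cytokines and chemokines (16), chemokine and cytokine receptors (19), the retinoic acid and TGF-beta list (7), the apoptosis list (25) and the list of CD98hc, amino acid transport and ATF4 response (19) also held 0 genes that passed, with medians between -0.18 and 0.19. Il1b, the most abundant cytokine, was at 2950 CPM ± 636 (SD, n = 4) and 3573 CPM ± 2347 (SD, n = 3). Bax, which permeabilises mitochondria, had an estimate of 1.24 (adjusted p = 0.0988, edgeR).

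The C-type lectin Cd209d, a relative of the gate gene Cd209a on chromosome 8 (3871824 to 3878555), fell. It was at 174, 91.1, 103 and 161 CPM in control replicates 1 to 4 and at 0, 17.8 and 0 CPM in cKO replicates 6 to 8, with 168 UMIs against 1 (adjusted p = 0.03, edgeR), and did not pass without cKO replicate 7 or 8 (adjusted p = 0.123 and 0.218, edgeR). Its pooled level was 23.1-fold higher in control mice, with an exact 95% counting interval of 4.10 to 919. This interval treats each UMI as independent and leaves out the spread between cells and mice. Cells with a Cd209d UMI numbered 44 of 131 in control and 2 of 24 in cKO mice. Of these 2 cKO cells, 1 was in replicate 5 (45.3 CPM), which was outside the fit. In control mice none of the Xcr1 Clec9a cells and 0.149% of C1q high cells had a Cd209d UMI. Of the 14 genes of its list tested, 1 fell and 13 did not pass, among them Clec10a (-0.33) and Mgl2 (-0.999). The gate gene Cd209a, given as a description, was at 1268 to 2171 CPM in control and 1016 to 1987 CPM in cKO mice.

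Fos, an immediate early gene of the AP-1 factor, was at 2487, 2816, 3018 and 2654 CPM in control replicates 1 to 4 and at 1566, 1212 and 1330 CPM in cKO replicates 6 to 8, without overlap. Its log2 fold change was -1.06 (SE 0.19, adjusted p = 0.0223, edgeR). The 2 cells of cKO replicate 5 had 3489 CPM, above all control mice, and with that mouse Fos did not pass (adjusted p = 0.352, edgeR). Of the 26 immediate early and heat shock genes tested, 1 fell and 25 did not pass, with a median of -0.28. Fosb (-1.59) and Zfp36 (-0.93) had values lower in each of the 3 cKO mice.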

How the data were processed

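Colonic CD11b+ cells positive for CCR2 or CD64 were captured per mouse with a 3′ v2 kit. The authors aligned reads with Cell Ranger (STAR 2.5.3a) to mm10 with EYFP added and deposited whole-number UMI counts per gene and cell, not normalized. Every column of cells named its mouse. Cells were kept with at least 631 UMIs, 399 genes and at most 5% mitochondrial UMIs, and without a hemoglobin UMI. The members and gene lists were chosen with earlier results of these data known.

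UMI counts were summed per mouse over cDC2 and tested with edgeR 4.0.16 (TMM, quasi-likelihood, R 4.3.3, limma 3.58.1) at a false discovery rate of 0.05. A minimum of 20 and then 10 cells per mouse left too few cKO mice, so 5 cells were required, the last step allowed by the design. Genes needed over 1 CPM in 3 sums and a UMI in 20 cells. Single values were compared with exact permutation tests over mice (scipy 1.17.1). The comparison groups required at least 2 UMIs of Xcr1 and Clec9a, at least 20 UMIs of Hp, Chil3 and F13a1 per 10000, or at least 60 of the C1q genes per 10000. Scrublet was run per mouse through scanpy 1.11.5.

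The genes named are Slc3a2, EYFP, up to 15 largest increases and decreases among non-overlapping genes past the threshold, and up to 4 per list past it. Others were named after their values were seen, as list members or markers. Lists are described by counts and medians. On simulated counts with 200 genes changed 4-fold, 95 were recovered with 3 wrong calls for the cDC2 comparison (5026 genes). For the interactions, 1 (against Xcr1 Clec9a cells, 7901 genes) and 4 (against Hp Chil3 F13a1 cells, 7289 genes) were recovered, without a wrong call. Each simulated gene had the same mean share in all sums, a fixed spread and no difference between mice or cell groups beyond the set changes. The simulation therefore does not give the error rates of the tests on the real counts. Gene positions are from GENCODE vM21 (GRCm38, which mm10 names) and promoters from RefSeq (GRCm38.p6). Alternatives were DESeq2 1.42.0, a likelihood ratio test, limma-voom, other low-count filters, gates of 2 or 4 UMIs, other denominators, doublets or shallow cells left out, and each mouse left out. Some genes are not reported here.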

Additional observations from a re-analysis of the deposited data

Results flagged for a closer look

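Gbp2 in the control mice stood out because control replicate 3, with 6 cDC2, had 0 CPM while the other control mice were between 15.4 and 16.6 CPM. This was 1 of 21 groups of 4 values examined, and chance alone gives about 1 in 20.

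The effect of the cKO differed between cDC2 and Xcr1 Clec9a cells by interaction log2 values of -3.38 for Ifitm1, -2.39 for Hmgb2, 5.13 for Apol7c and -1.10 for Ifitm3, the 4 with the lowest p. Ifitm1 was at 1697 CPM ± 1002 in control cDC2 (SD, n = 4) and 1075 CPM ± 1203 in cKO cDC2 (SD, n = 2), while Xcr1 Clec9a cells had 48.3 CPM ± 33.3 and 239 CPM ± 310. In both cell groups 1 of the 2 cKO mice carried most of the Ifitm1 level. The cKO mouse with the highest Ifitm1 level in cDC2, replicate 7 (4777 CPM), was not in this comparison. With it, the log2 estimate of Ifitm1 in cDC2 alone was 0.37. Apol7c was at 7.27 CPM ± 12.8 and 264 CPM ± 374 in cDC2, so that 1 of the 2 cKO mice carried it.

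Against Hp Chil3 F13a1 cells, the 4 with the lowest p were Cxcl2 (-2.35), Il1r2 (-3.49), Hilpda (-3.39) and Tuba1b (-1.84). The neutrophil-attracting chemokine Cxcl2 was at 559 CPM ± 329 in control and 330 CPM ± 209 in cKO cDC2, and at 2021 CPM ± 1363 and 5513 CPM ± 1658 in Hp Chil3 F13a1 cells (SD, n = 3 each). None of these passed without the mouse as a block.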

How the results depend on the processing

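The cDC2 share differed by -6.82 to -4.27 percentage points under other gates, depths and denominators, except those named next, and by -5.75 to -4.37 with single mice left out. With dendritic cells alone as the denominator the difference was 0.364 points in the other direction, and without control replicate 3 and cKO replicate 5 together it was -5.28 (p = 0.1, the smallest that an exact permutation test of 3 against 3 mice allows). That exclusion, and a gate on Klrd1, Clec10a, H2-Oa and Cd7 (-6.82), were chosen after seeing the data. The Itgae difference turned to -1.29 points without thinning and ranged from -1.66 (without cKO replicate 8) to 1.86 with single mice left out.

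Of the genes changed in cDC2, 30 passed with DESeq2, 78 without a low-count filter, 7 with filterByExpr, 48 with the likelihood ratio test, 5 with limma-voom, 10 without called doublets (3 control mice) and 0 with a gate of 4 UMIs, and 0 to 26 with single mice left out. The 16 genes that passed kept their direction in all 244 values of these alternatives and missed the threshold in 119 of them. Slc3a2 kept its direction in 16 of 16 and EYFP was not tested. The alternative of at least 10 cells per mouse was not run, since no cKO mouse has them.

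The interaction against Xcr1 Clec9a cells gave 0 genes without the mouse (replicate) block, 0 with DESeq2, 20 without a low-count filter, 7 without called doublets and 4 to 18 with single mice left out. Against Hp Chil3 F13a1 cells it gave 0 without the block, 0 with DESeq2 and 25 to 53 with single mice left out. The pairing is of cell groups within a mouse. No paired analysis was possible because control and cKO mice share no replicate numbers. With 24 cKO cDC2, changes of genes with few UMIs were hard to detect at this depth.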

Other observations

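Some further genes had large estimates without passing the threshold, chosen after their values were seen. Mmp12, a metalloelastase, had 172 UMIs in cDC2 of the control mice and 1 UMI in the fitted cKO mice, from 26 of 131 and 1 of 24 cells. Control replicate 3 (14.7 CPM) was below cKO replicate 7 (17.8 CPM) (log2 estimate -4.36, adjusted p = 0.084, edgeR). The pooled level was 23.7-fold lower in cKO mice, with an exact 95% counting interval of 4.19 to 941. This interval too leaves out the spread between cells and mice. Trf, the iron carrier transferrin, had an estimate of -2.59 with the same adjusted p of 0.084 (edgeR). Ccl17, a chemokine for CCR4-bearing T cells, was at 78.7 to 227 CPM in control mice and at 25.7, 1159 and 64.1 CPM in cKO replicates 6 to 8, so 1 mouse set its mean. The high Ccl17 value was in the cKO mouse with the highest Ifitm1 level (4777 CPM, against 1926 and 224 CPM in the others).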
